A study of Mus musculus with 11 samples.

Results

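The genes described here are 8 products of the conducting airway epithelium, taken as a set of secretoglobins and other club cell products: Scgb1a1, Scgb3a1, Scgb3a2, Bpifa1, Reg3g, Chad, Gabrp and Cckar. They are 8 of the 23255 genes in the deposited table, and all 8 were among the 16225 genes tested. The set was given as a list of names, with no cutoff on a measured value. It was chosen with earlier results of these data known, so its comparison with all genes is a description only. RNA was sequenced from lung tissue of C57BL/6 mice, an inbred laboratory strain, in 11 libraries. There were 3 libraries of untreated mice (control), 3 of mice given naphthalene, and 5 of mice that received osimertinib after naphthalene. Every osimertinib library therefore also carries the naphthalene exposure, and no group had osimertinib without naphthalene. The labels give no dose, route, interval, age or sex, and do not say whether a library is 1 animal or a pool, so the tests measure the spread between these libraries, which may be partly technical. The series asks about naive CD4+ T cells in lung inflammation under osimertinib, an inhibitor of the epidermal growth factor receptor. The airway genes bear on the injury that came before the drug.

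Club cells are the dome-shaped secretory cells of the bronchioles. Naphthalene is toxic to them because their cytochrome P450 enzymes turn it into a reactive product, and in the mouse it is a standard way to strip these cells from the airway. Secretoglobins are small secreted proteins, and Scgb1a1 (uteroglobin, or club cell secretory protein) is the main one of the bronchiolar lining. Scgb3a1 and Scgb3a2 belong to the same family. Bpifa1, also called SPLUNC1, is a secreted protein of the airway surface liquid, and Reg3g is an antimicrobial lectin of mucosal surfaces. Chad (chondroadherin) is a leucine-rich matrix protein first known from cartilage. Gabrp is the pi subunit of the GABA-A receptor, a chloride channel, and Cckar is a receptor for the peptide hormone cholecystokinin.

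The stretch of 250 bases before the transcription start is shown for 4 of these genes, so that the sequence next to genes with unlike levels across the libraries can be compared. RefSeq's promoter table, on build GRCm38.p6, matched 5 of the 8 genes. Each sequence is given 5′ to 3′ on the gene's strand. Capitals mark matches, on either strand, to the forkhead motif TGTTTNC, the NK2 homeobox motif CAAGTG, the C/EBP motif TTGCNNAA or the TATA box TATAAA.
Scgb3a1, chr11:49663345-49663594, plus strand: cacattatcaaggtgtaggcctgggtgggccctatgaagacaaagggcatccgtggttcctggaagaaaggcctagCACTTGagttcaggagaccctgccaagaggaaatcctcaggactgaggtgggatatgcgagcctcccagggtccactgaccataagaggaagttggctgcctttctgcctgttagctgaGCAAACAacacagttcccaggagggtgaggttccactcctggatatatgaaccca
Bpifa1, chr2:154142630-154142879, plus strand: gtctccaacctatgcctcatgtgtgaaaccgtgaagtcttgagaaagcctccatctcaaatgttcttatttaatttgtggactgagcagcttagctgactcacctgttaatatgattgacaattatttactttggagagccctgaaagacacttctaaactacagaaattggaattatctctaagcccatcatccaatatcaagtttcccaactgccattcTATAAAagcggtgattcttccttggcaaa
Reg3g, chr6:78468875-78469124, minus strand: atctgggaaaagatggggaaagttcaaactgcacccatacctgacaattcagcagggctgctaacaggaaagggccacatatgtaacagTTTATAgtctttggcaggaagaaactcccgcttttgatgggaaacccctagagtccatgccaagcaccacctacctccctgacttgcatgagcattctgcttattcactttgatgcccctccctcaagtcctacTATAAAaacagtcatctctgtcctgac
Chad, chr11:94564797-94565046, plus strand: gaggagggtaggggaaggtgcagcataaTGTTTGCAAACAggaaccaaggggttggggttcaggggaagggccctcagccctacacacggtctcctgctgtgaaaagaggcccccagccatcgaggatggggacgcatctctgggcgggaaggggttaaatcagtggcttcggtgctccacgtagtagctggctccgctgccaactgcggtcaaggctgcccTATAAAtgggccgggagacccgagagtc

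Scgb3a1 held 1 forkhead match and 1 NK2 homeobox match. Chad held 2 forkhead matches that overlap each other on opposite strands, and 1 TATA box. Bpifa1 held 1 TATA box and Reg3g held 2 matches to it, 1 on each strand. The matched Gabrp window held none of the 4 motifs. Of all 32851 promoter windows of the same length in the table, 17.8% held the forkhead motif, 11.6% the NK2 homeobox motif, 9.56% the C/EBP motif and 12.4% the TATA box. These are matches of letters only.

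The libraries held between 5045361 and 13009975 reads, and the 3 naphthalene libraries, at 5045361 to 5082866, were among the shallowest. In 4 libraries (naphthalene 1 to 3 and osimertinib 2) a single gene that could not be named from the tables used here took between 43.9% and 60.3% of all reads, against at most 0.034% in each of the others. That leaves few reads for the rarer genes: naphthalene 3 had 18 reads of Chad (95% Poisson interval 10.7 to 28.4), 22 of Reg3g, 24 of Cckar, 37 of Bpifa1 and 45 of Gabrp. Intervals of this kind cover counting error only. In osimertinib 3, 2 other unnamed genes each took 16.7% of reads, against at most 4.55% in any other library. Naphthalene 3 and osimertinib 3 stood apart from the rest of their groups in S100a8 and S100a9, abundant proteins of neutrophils. In these libraries S100a8 and S100a9 were at 129 and 146 (naphthalene 3) and at 131 and 182 (osimertinib 3), against at most 17.2 and 25.3 in the other 9. Ltf, a mucosal defence gene, was instead the lowest of its group in both (4.59 and 5.70). Values are given in CPM, reads scaled to a normalised library size. The unit of the deposited table is not stated, and its values were read in this way.

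Scgb1a1 was by far the most abundant of the 8 genes. Per kilobase of its longest annotated transcript it stood at 23343 ± 2744 CPM per kb (SD, n = 3) in control lungs. Next came Scgb3a2 at 448 ± 92.0, Scgb3a1 at 159 ± 35.7 and Bpifa1 at 85.1 ± 30.2 CPM per kb (SD, n = 3 each). Reg3g was at 22.5 ± 3.82, Gabrp at 18.1 ± 0.45, Chad at 13.65 ± 0.029 and Cckar at 11.7 ± 0.60 CPM per kb (SD, n = 3 each). No neighbours in this order overlapped between the control libraries. The order of the means was the same in the osimertinib libraries, but there Scgb3a2 (193 to 647 CPM per kb) overlapped Scgb3a1 (97.9 to 264), Bpifa1 (14.0 to 54.2) overlapped Reg3g (6.93 to 25.9), and the ranges of Reg3g, Gabrp, Chad and Cckar overlapped one another.

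**Figure D1:**
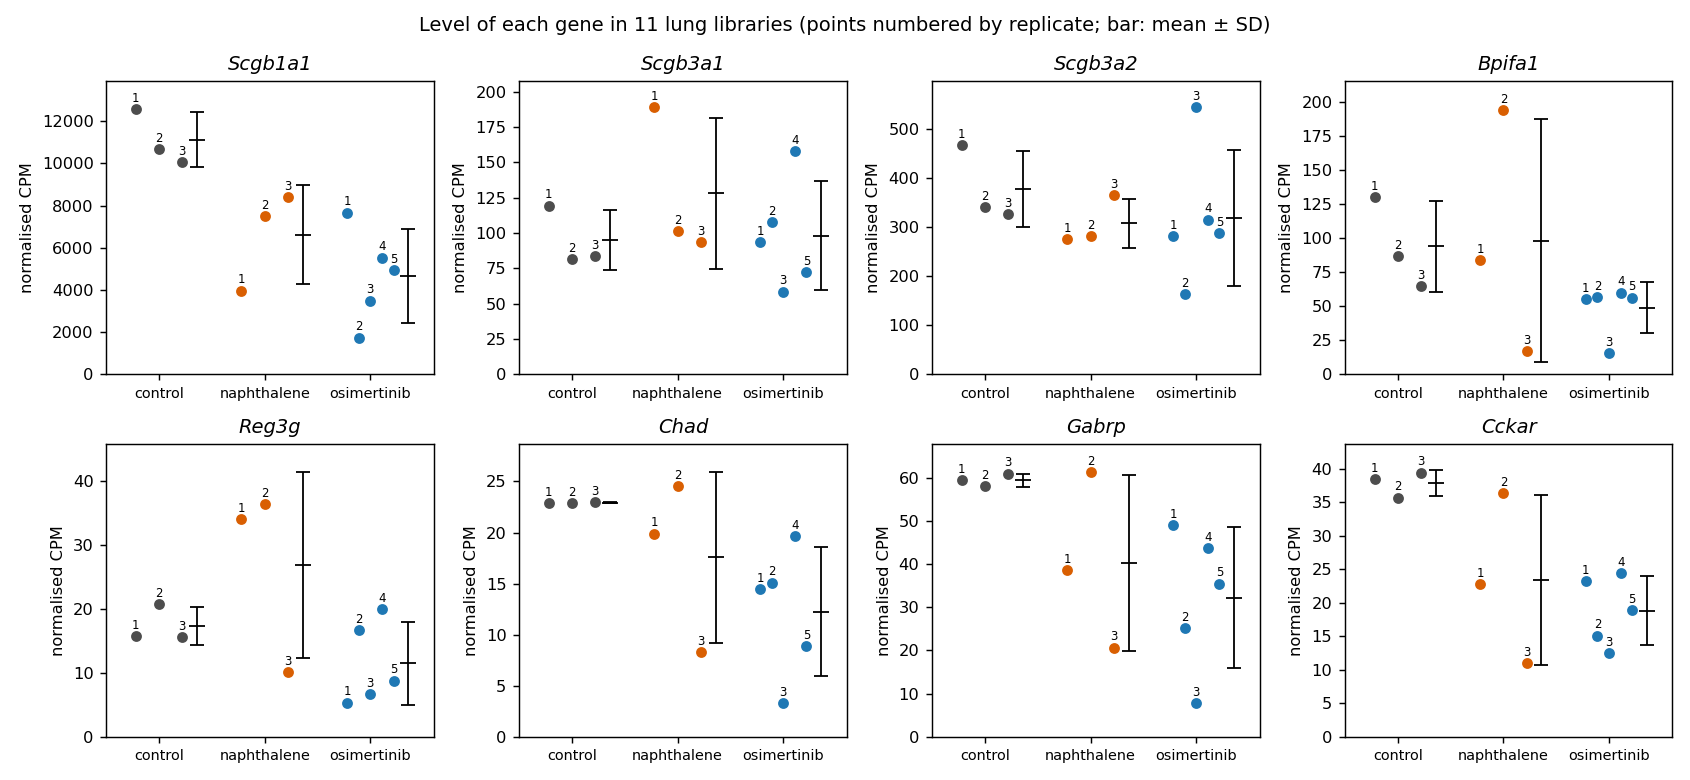
Level of each of the 8 genes (normalised CPM, linear axis from 0) in the 3 control, 3 naphthalene and 5 osimertinib libraries. Points are single libraries numbered by replicate, and the bar beside them is the mean ± SD; Scgb1a1 lies lower in every naphthalene and osimertinib library than in any control, while naphthalene 3 and osimertinib 3 are the lowest points of their groups for Bpifa1, Chad, Gabrp and Cckar.

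Naphthalene against control asks what the airway injury alone left in the lung. Scgb1a1 averaged 59.5% of its control mean, and all 3 naphthalene libraries lay below all 3 controls. Cckar averaged 61.7%, Gabrp 67.6%, Chad 76.6% and Scgb3a2 81.4% of control, with at least 1 library of each inside or above the control range. Bpifa1 averaged 104% of control, although its mean log2 value was below that of control, and Scgb3a1 and Reg3g averaged 135% and 155%. None of the 8 differences passed the test after adjustment over all genes, which does not show that they are absent.

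By limma's moderated test on log2(CPM + 1), adjusted over all genes, 0 of the 8 genes passed an adjusted p of 0.05, beside 0% of all genes tested. At an unadjusted p under 0.05 limma had 1 of the 8 (Cckar) and 1211 of the 16225 genes. EdgeR and DESeq2, run on read numbers recovered from the values, called 0 of the 8, and 0 and 11 of all genes. DESeq2 gave no adjusted p for 3 of the 8 (Reg3g, Chad and Cckar). Scgb1a1 was the 1 gene of the 8 whose groups did not overlap, against 11.2% of all genes that lay wholly lower and 4.94% wholly higher. The median log2 difference of the 8 was −0.47, with 6 below 0, against −0.064 over all genes, of which 62.0% were below 0.

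Osimertinib after naphthalene against naphthalene alone asks what the drug added. Here all 8 differences of mean log2 values were below 0, and all 8 genes had overlapping groups. Reg3g had the largest difference, at 11.5 ± 6.45 CPM (SD, n = 5) against 26.9 ± 14.6 (SD, n = 3). Scgb3a2 had the smallest, at 318 ± 139 against 307 ± 50.2, so its arithmetic mean was the higher under osimertinib while its mean log2 value was the lower. Limma called 0 of the 8, beside 0% of all genes tested. Its unadjusted p was under 0.05 for 1 of the 8 (Reg3g) and for 1671 genes in all. EdgeR and DESeq2 also called 0 of the 8, and 0 and 21 of all genes. Of all genes 2.12% lay wholly lower and 3.82% wholly higher, and of the 8 none did either. The median of the 8 was −0.47 on the log2 scale, against 0.058 over all genes, of which 39.5% were below 0.

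Osimertinib after naphthalene against control spans both exposures. Scgb1a1 averaged 42.0% of its control mean, Cckar 49.8%, Bpifa1 51.8%, Chad 53.4% and Gabrp 54.3%, and for these 5 genes all 5 osimertinib libraries lay below all 3 controls. Reg3g averaged 66.2% and Scgb3a2 84.4%, and both overlapped control. Scgb3a1 averaged 103% of control, with a mean log2 value just below it. The 5 of 8 genes wholly below control compare with 3.43% of all genes, and 2.91% of all genes lay wholly above.

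Limma called 0 of the 8 in this comparison, beside 0.00616% of all genes, which is 1 gene, Mmp2 (a matrix metalloprotease, named after its value was seen). That call was lost with the replicate number as a block (0 genes). The smallest adjusted p among the 8 was 0.625, for Cckar. At an unadjusted p under 0.05 limma had 4 of the 8 (Scgb1a1, Chad, Gabrp and Cckar) and 779 genes in all. EdgeR called 0 of the 8 and DESeq2 0, against 1 and 75 of all genes. The median of the 8 was −1.01, with 8 below 0, against −0.0082 over all genes, of which 52.0% were below 0. With array weights, which give less weight to libraries that vary more, Cckar passed (log2 difference −0.78, adjusted p = 0.0332). This comparison and the one of naphthalene against control use the same 3 control libraries.

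**Figure D2:**
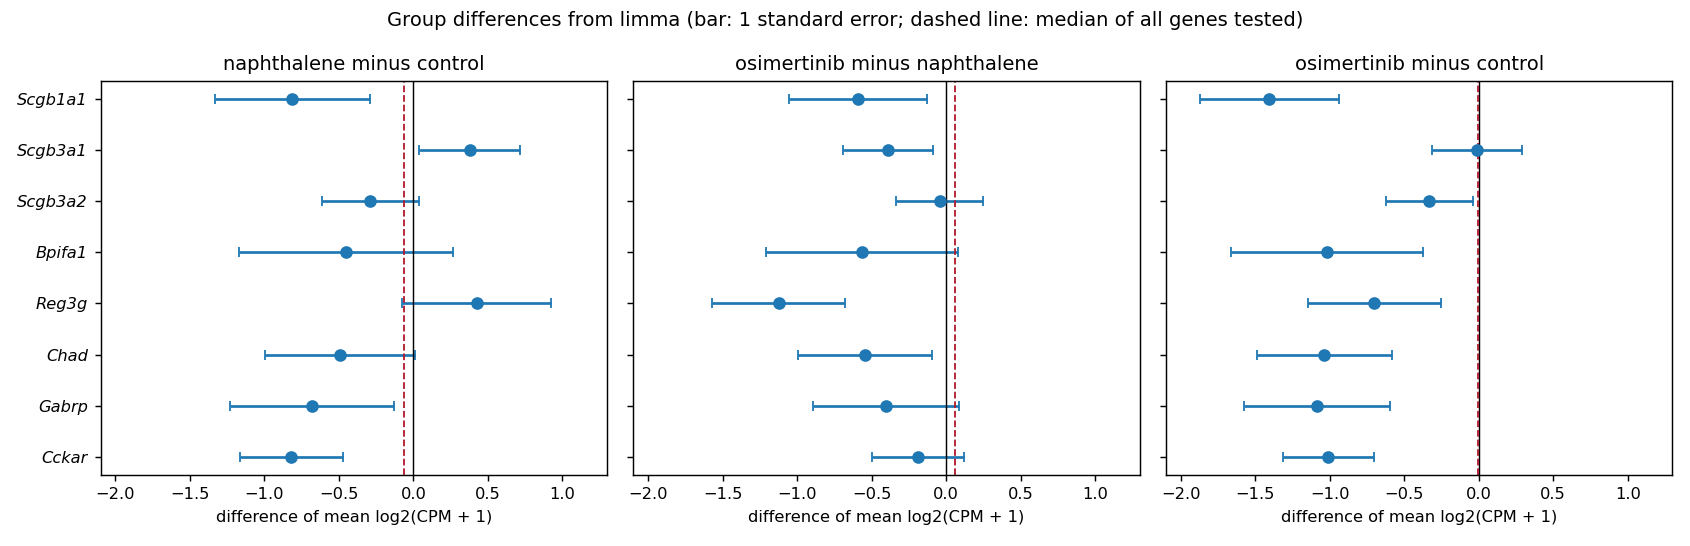
Difference of group means of log2(CPM + 1) for the 8 genes in the 3 comparisons, as fitted by limma across all 16225 genes. Points are the fitted differences, bars are 1 standard error, and the dashed line is the median over all genes tested (−0.064, 0.058 and −0.0082); in osimertinib minus control Scgb1a1 lies farthest below 0, at −1.41, and Scgb3a1 lies next to 0, at −0.013.

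Scgb1a1, the main club cell secretion, stood at 12579, 10676 and 10078 CPM in the controls. It stood at 3965, 7494 and 8387 in naphthalene 1 to 3, and at 7664, 1737, 3484, 5524 and 4946 in osimertinib 1 to 5. Every exposed library was below every control. The naphthalene and osimertinib ranges overlapped, with naphthalene 1 below 3 of the osimertinib libraries. The fitted log2 difference was −0.81 (SE 0.52, adjusted p = 0.789) for naphthalene against control, −0.59 (SE 0.46, adjusted p = 0.709) for osimertinib against naphthalene and −1.41 (SE 0.46, adjusted p = 0.726) for osimertinib against control. The spread was wider in the exposed groups: the highest library was 1.25 times the lowest among controls, 2.12 times among naphthalene and 4.41 times among osimertinib libraries. The lowest value of all was in osimertinib 2, the 1 osimertinib library in which the unnamed gene took 43.9% of reads. Without osimertinib 2 and osimertinib 3 the difference from control was −0.90, and without naphthalene 3 and osimertinib 3 it was −1.34. The difference between the exposed groups was −0.28 without osimertinib 2, −0.084 without osimertinib 2 and 3, and −0.10 with array weights. The difference of naphthalene from control was −0.48 without naphthalene 1. In whole-lung RNA, fewer club cells and less RNA per club cell cannot be told apart.

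Scgb3a2, another secretoglobin of the bronchioles, averaged 81.4% of control under naphthalene and 84.4% under osimertinib. It stood at 466, 340 and 326 CPM in the controls and at 276, 281 and 365 in the naphthalene libraries. In osimertinib 1 to 5 it stood at 281, 163, 545, 315 and 288. Osimertinib 3 held the highest value of all 11 libraries and osimertinib 2 the lowest, so the osimertinib range covered the other groups. The log2 differences were −0.29 (SE 0.33, adjusted p = 0.914) against control for naphthalene and −0.33 (SE 0.29, adjusted p = 1.00) for osimertinib, and −0.043 (SE 0.29, adjusted p = 0.973) between the exposed groups.

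Scgb3a1 was the secretoglobin with the least difference from control under osimertinib. The controls had 119, 81.5 and 83.7 CPM, naphthalene 1 to 3 had 189, 101 and 93.6, and osimertinib 1 to 5 had 93.8, 108, 58.5, 158 and 72.5. Naphthalene 1 and osimertinib 4 were above all controls, and osimertinib 3 and 5 below them. The log2 difference was 0.38 (SE 0.34, adjusted p = 0.879) for naphthalene against control, −0.39 (SE 0.30, adjusted p = 0.708) for osimertinib against naphthalene and −0.013 (SE 0.30, adjusted p = 1.00) for osimertinib against control. Without naphthalene 1 the first was 0.059 and the second −0.072, so both rested on that library. Naphthalene 1 was at once the library of its group with the most Scgb3a1 and the one with the least Scgb1a1.

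The secretoglobins can also be set against each other within a library, which removes any scaling between libraries. The ratio of Scgb1a1 to Scgb3a2 was 27.0, 31.4 and 30.9 in the controls and 14.4, 26.7 and 23.0 in naphthalene 1 to 3. In osimertinib 1 to 5 it was 27.2, 10.7, 6.40, 17.5 and 17.2. All 3 naphthalene libraries lay under the controls, and osimertinib 1 was the 1 exposed library inside the control range. The ratio of Scgb1a1 to Scgb3a1 was 105 to 131 in the controls, 20.9 to 89.6 under naphthalene and 16.1 to 81.7 under osimertinib, so every exposed library was below every control. Scgb1a1 made up 95.9% ± 0.36 (SD, n = 3) of the summed CPM of the 4 measured secretoglobins in control, 93.1% ± 3.18 (SD, n = 3) under naphthalene and 90.4% ± 4.40 (SD, n = 5) under osimertinib. The lowest shares were 85.1% in osimertinib 3, 86.5% in osimertinib 2 and 89.4% in naphthalene 1. In osimertinib 3 the balance went to Scgb3a2 (13.3%, against 3.06% to 3.54% in controls), and in osimertinib 2 and naphthalene 1 to both Scgb3a2 (8.11% and 6.23%) and Scgb3a1 (5.36% and 4.27%, against 0.73% to 0.91%).

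Against Cyp2f2, the club cell cytochrome P450 that activates naphthalene, Scgb1a1 kept no constant ratio. It was 8.10 to 9.06 in the controls, 5.81, 6.23 and 12.96 in naphthalene 1 to 3, and 8.08, 3.33, 12.3, 6.59 and 7.46 in osimertinib 1 to 5. The ratio was above the controls in naphthalene 3 and osimertinib 3 and below them in the other 6 exposed libraries, although osimertinib 1 missed the lowest control only narrowly. Against Foxj1, a regulator of ciliated cells, the ratio of Scgb1a1 was 208 to 253 in the controls, 83.7 to 300 under naphthalene and 26.4 to 168 under osimertinib. All 5 osimertinib libraries were thus below the controls, while naphthalene 3 was above them.

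**Figure D3:**
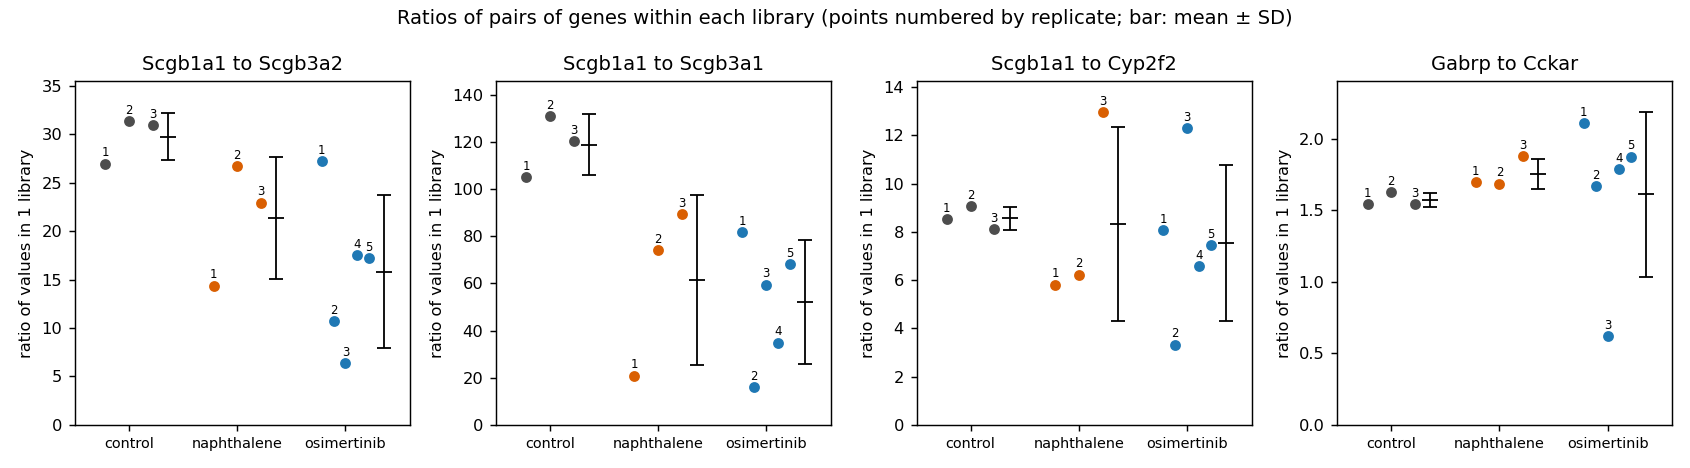
Ratios of the values of 2 genes within the same library, for 4 pairs (linear axes from 0). Points are single libraries numbered by replicate, with the mean ± SD beside them; Scgb1a1 to Scgb3a1 is lower in every exposed library (at most 89.6) than in any control (at least 105), and Gabrp to Cckar lies between 1.54 and 2.11 in all but osimertinib 3 (0.62).

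The airway defence protein Bpifa1 varied most among the naphthalene libraries. It stood at 131, 86.9 and 65.0 CPM in the controls, at 83.7, 194 and 17.0 in naphthalene 1 to 3, and at 55.4, 56.6, 15.5, 60.0 and 56.4 in osimertinib 1 to 5. Naphthalene 2 was the highest of all libraries and 11.4 times naphthalene 3. In the osimertinib group 4 libraries lay between 55.4 and 60.0, all under the lowest control, with osimertinib 3 far below them. The log2 differences were −0.45 (SE 0.72, adjusted p = 0.952) for naphthalene and −1.02 (SE 0.64, adjusted p = 1.00) for osimertinib against control, and −0.56 (SE 0.64, adjusted p = 0.806) between the exposed groups. Without naphthalene 3 and osimertinib 3 these became 0.49, −0.65 and −1.15. The direction for naphthalene thus rested on naphthalene 3.

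Reg3g, the antimicrobial lectin, was the member highest under naphthalene relative to control. The controls had 15.7, 20.8 and 15.6 CPM, and naphthalene 1 to 3 had 34.1, 36.4 and 10.1. Osimertinib 1 to 5 had 5.34, 16.7, 6.68, 20.0 and 8.80. Naphthalene 1 and 2 lay above every other library, while naphthalene 3 and 3 of the 5 osimertinib libraries (1, 3 and 5) lay below every control. The log2 difference was 0.42 (SE 0.50, adjusted p = 0.919) for naphthalene against control, −1.12 (SE 0.45, adjusted p = 0.409) for osimertinib against naphthalene and −0.70 (SE 0.45, adjusted p = 1.00) for osimertinib against control. Only 52 of the 16225 genes, or 0.32%, had a log2 difference between the exposed groups as low as that of Reg3g or lower. Without naphthalene 3 and osimertinib 3 that difference was −1.56 (adjusted p = 0.0630). The difference of naphthalene from control was 0.12 without naphthalene 2 and 0.99 without naphthalene 3.

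Chad, the matrix protein, had almost the same value in each control, at 22.9, 22.9 and 23.0 CPM. It stood at 19.9, 24.5 and 8.26 in naphthalene 1 to 3 and at 14.4, 15.1, 3.30, 19.6 and 8.86 in osimertinib 1 to 5. The osimertinib libraries were all below control, while naphthalene 2 was above it. The log2 difference was −0.49 (SE 0.50, adjusted p = 0.899) for naphthalene against control, −0.54 (SE 0.45, adjusted p = 0.721) for osimertinib against naphthalene and −1.04 (SE 0.45, adjusted p = 0.976) for osimertinib against control. The last was −0.68 without naphthalene 3 and osimertinib 3. The first was −0.052 without naphthalene 3, and the second was −0.18 without osimertinib 3 and −0.98 without naphthalene 3. Cartilage genes were scarce: 4 of the 13 cartilage genes listed were in the table (Col9a3, Col11a2, Comp and Hapln1), and together they reached 2.33 to 2.62 CPM in control, 1.58 to 2.75 under naphthalene and 1.80 to 3.21 under osimertinib. Comp was at 0 in 6 libraries.

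The GABA-A subunit Gabrp stood at 59.3, 58.0 and 60.9 CPM in the controls. It stood at 38.5, 61.3 and 20.7 in naphthalene 1 to 3 and at 49.1, 25.2, 7.75, 43.7 and 35.5 in osimertinib 1 to 5. Naphthalene 2 was just above the controls and all 5 osimertinib libraries were below them, osimertinib 3 by the most. The log2 differences were −0.68 (SE 0.55, adjusted p = 0.852) for naphthalene and −1.09 (SE 0.49, adjusted p = 1.00) for osimertinib against control, and −0.40 (SE 0.49, adjusted p = 0.820) between the exposed groups. The differences from control were −0.28 and −0.66 without naphthalene 3 and osimertinib 3. Of the 8 GABA-A subunit genes in the table, 4 were tested, and in the controls Gabrp held most of the family's summed CPM (69.3 to 73.2). The other tested subunits, Gabra3, Gabre and Gabrq, were at 0.46 to 9.49 CPM in every library.

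Cckar, the cholecystokinin receptor, resembled Gabrp from library to library. The controls had 38.5, 35.7 and 39.4 CPM, naphthalene 1 to 3 had 22.7, 36.4 and 11.01, and osimertinib 1 to 5 had 23.3, 15.1, 12.5, 24.5 and 18.9. All osimertinib libraries were below all controls, and naphthalene 2 lay within them. The log2 difference was −0.82 (SE 0.34, adjusted p = 0.636) for naphthalene against control, −0.19 (SE 0.31, adjusted p = 0.869) for osimertinib against naphthalene and −1.01 (SE 0.31, adjusted p = 0.625) for osimertinib against control. Without naphthalene 3 and osimertinib 3 the differences from control were −0.38 and −0.88. The ratio of Gabrp to Cckar within a library was 1.54 to 1.62 in control and 1.69 to 1.88 under naphthalene. In osimertinib it was 2.11, 1.67, 0.62, 1.79 and 1.87, so osimertinib 3 alone fell out of step. The hormone gene Cck and the other receptor gene Cckbr are not listed in the table.

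**Figure D4:**
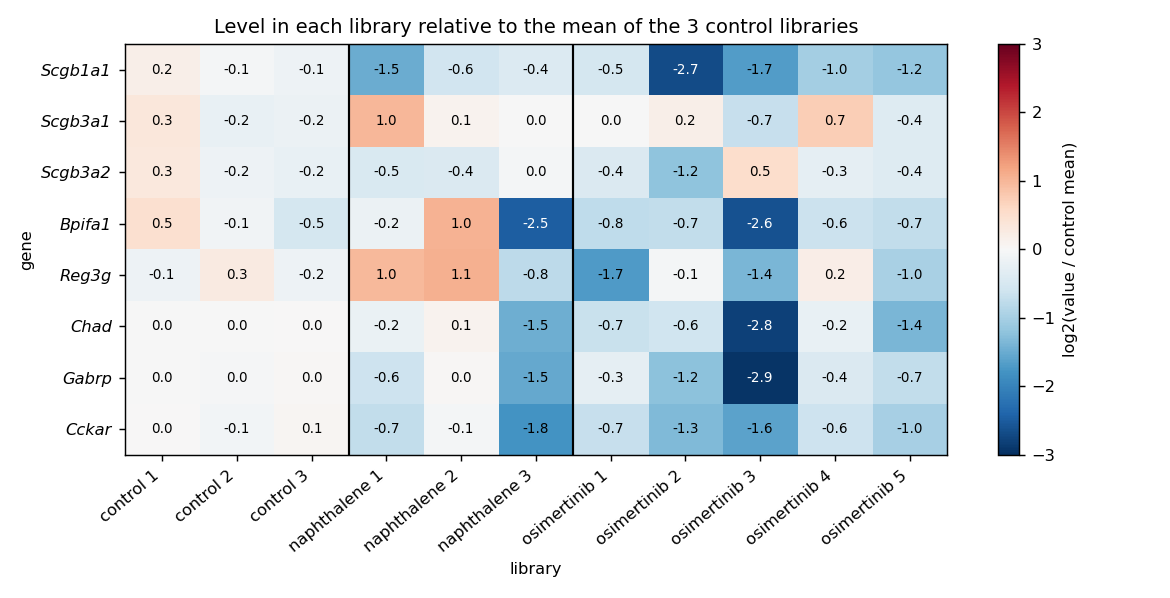
Value of each of the 8 genes in each of the 11 libraries as log2 of its ratio to the mean of the 3 controls (blue below, red above; the number in each cell is that log2 value). Naphthalene 3 and osimertinib 3 are dark for Bpifa1, Chad, Gabrp and Cckar but not for Scgb3a2, and osimertinib 2 is darkest for Scgb1a1.

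The order of libraries differed between the 8 genes. Naphthalene 3 was the lowest of its group for 6 of the 8 genes (Scgb3a1, Bpifa1, Reg3g, Chad, Gabrp and Cckar) but the highest for Scgb1a1 and Scgb3a2. Osimertinib 3 was the lowest of its group for 5 of the 8 (Scgb3a1, Bpifa1, Chad, Gabrp and Cckar) and the highest for Scgb3a2. Osimertinib 2 was the lowest for Scgb1a1 and Scgb3a2. Counted against the controls, 8 of the 8 genes were below the lowest control in osimertinib 5, 7 in osimertinib 1 and 3, and 6 in osimertinib 2 and 4. In naphthalene 1, 2 and 3 the counts were 5, 2 and 6. The matching shares of all genes were not counted for single libraries, so these counts have no background to be read against. Naphthalene 2 was the exposed library nearest to control, with a median over the 8 genes of 105% of the control mean and 4 genes above the highest control (Bpifa1, Reg3g, Chad and Gabrp). In osimertinib 3 that median was 32.1%, the lowest of the 8 exposed libraries.

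Naphthalene 3 and osimertinib 3 were the lowest of their groups for 6 and 5 of the 8 genes. Scgb3a2 was instead at its group's highest in both, and Scgb1a1 in naphthalene 3. Both libraries also had other marker genes at their group's extremes. The 9 alveolar type 2 genes summed to 12578 to 14105 CPM in control, 13728 to 20203 under naphthalene and 14749 to 29321 under osimertinib, and both libraries held the highest sum of their group. The 5 leukocyte genes summed to 539 to 606 CPM in control, with naphthalene 3 at 714 and osimertinib 3 at 703 again the highest of their groups. In osimertinib 3 these genes went both ways: Coro1a (114) was the highest of its group, while Ptprc (144) was below every control (168 to 200). The 10 ciliated cell genes summed to 269 to 325 in control, 269 to 310 under naphthalene and 257 to 384 under osimertinib. Osimertinib 3 had the highest of these sums, but its ciliated cell genes went both ways. Tppp3 was the highest of the osimertinib group there (233), while Foxj1 (32.5) and Cdhr3 (13.8) were the lowest. Of the 7 basal cell markers 5 were in the table, their sum was at most 3.56 in any library, and Krt5 and Krt17 are not listed in it. The part of these cell types and of these libraries in the values of the 8 genes was not tested.

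Other club cell genes were mostly below control too. Of 12 such genes, none called by limma in any comparison, 11 were below control under naphthalene (median log2 −0.39, 5 wholly lower) and 11 under osimertinib (median −0.64, 8 wholly lower), against medians of −0.064 and −0.0082 over all genes. Over all genes 62.0% were below control under naphthalene and 52.0% under osimertinib, and 11.2% and 3.43% were wholly lower. Between the exposed groups 8 were lower and 4 higher (median −0.12, 2 wholly lower). Of all genes 39.5% were below 0 there and 2.12% wholly lower. Cyp2f2 was at 1299 ± 156 CPM (SD, n = 3) in control, 844 ± 311 (SD, n = 3) under naphthalene and 651 ± 263 (SD, n = 5) under osimertinib. Cbr2, a carbonyl reductase, was at 1419 ± 277, 1139 ± 359 and 1144 ± 287, and Aldh1a1, a retinaldehyde dehydrogenase, at 439 ± 58.6, 331 ± 37.5 and 350 ± 27.3. Haptoglobin (Hp) was at 344 ± 18.4, 258 ± 50.7 and 239 ± 30.1.

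Of the 9 mucous cell genes, products of the goblet-type secretory cells, 8 were above control under naphthalene (median log2 0.14). Between osimertinib and naphthalene 9 of 9 were below 0 (median −0.62), as were 9 of 9 against control (median −0.41). None was called by limma in any comparison, and none had groups without overlap. Among all genes 38.0% were above control under naphthalene. Between the exposed groups 39.5% of all genes were below 0, as were 52.0% for osimertinib against control. Wholly lower were 11.2% of all genes under naphthalene, 2.12% between the exposed groups and 3.43% under osimertinib. Wholly higher were 4.94%, 3.82% and 2.91% in that order. Limma called 0%, 0% and 0.00616% of all genes, and their medians were −0.064, 0.058 and −0.0082. Muc5b, the main airway mucin, ran from 73.4 to 564 CPM under naphthalene and from 67.6 to 415 under osimertinib, with naphthalene 3 and osimertinib 3 the lowest, against 135 to 327 in control. Clca1 ran from 5.51 to 123 under naphthalene and 5.88 to 33.5 under osimertinib, against 20.5 to 39.4. Bpifb1, the long relative of Bpifa1, showed the same libraries at the bottom: it was at 75.9 to 86.5 in control, 136, 127 and 21.6 in naphthalene 1 to 3, and 52.7, 90.8, 12.03, 98.0 and 34.7 in osimertinib 1 to 5.

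Of 15 mucosal defence genes 13 were tested and none was called. Under naphthalene 9 were above control (median log2 0.084, 2 wholly higher) and under osimertinib 8 were (median 0.39, 3 wholly higher). Over all genes 38.0% and 48.0% were above control, and 4.94% and 2.91% wholly higher. The iron-binding defence protein Lcn2 was at 48.6 ± 8.87 CPM in control (SD, n = 3), 113 ± 16.8 under naphthalene (SD, n = 3) and 124 ± 85.6 under osimertinib (SD, n = 5), and every exposed library exceeded every control. Pigr, the receptor that carries immunoglobulin A across epithelium, was lowest in naphthalene 3 (13.3) and osimertinib 3 (6.15), against 43.2 to 74.3 in control. Of 14 transcription factor and Notch genes of airway epithelium listed, 13 were tested and none was called. Under naphthalene 10 were below control and 3 above (median log2 −0.073), 3 wholly lower and 1 wholly higher. Over all genes 62.0% were below control there, 11.2% wholly lower and 4.94% wholly higher. Between the exposed groups 8 were above 0 and 5 below (median 0.017, 1 wholly lower), and under osimertinib 6 were above control and 7 below (median −0.025, 1 wholly lower). Over all genes 60.5% were above 0 between the exposed groups, and 2.12% wholly lower. Under osimertinib 52.0% of all genes were below control and 3.43% wholly lower. Single genes departed from the medians of this list. Cebpb, a C/EBP factor, had log2 differences of −1.18 (SE 0.37, adjusted p = 0.519, wholly lower) for naphthalene against control and 1.05 (SE 0.33, adjusted p = 0.305) for osimertinib against naphthalene. Sox2 was wholly lower under naphthalene (log2 −0.85, SE 0.41, adjusted p = 0.693). Nkx2-1, which is active in all lung epithelium, was at 90.0 to 91.8 CPM in control, 93.6 to 98.1 under naphthalene and 83.1 to 109 under osimertinib.

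Genes whose pattern over the 11 libraries was most like that of each member were ranked by Pearson's r of log2(CPM + 1). These are descriptions over points that share groups, scaling and depth. Cckar was closest to Tyro3 (r = 0.98) and Ascc2 (r = 0.98), followed by the club cell gene Hp (r = 0.94). Gabrp was closest to Por (r = 0.97), the reductase that supplies electrons to cytochrome P450 enzymes, and had Mgat3 and Pigr (r = 0.96 and 0.95) among its 5. Chad had the same pair among its 5 (r = 0.96 and 0.95), and Bpifa1 had Mgat3 (r = 0.94) after Bicdl1 (r = 0.96). Reg3g was closest to Cyp2a5 (r = 0.95), a cytochrome P450 on the club cell list. Scgb1a1 was closest to Ugt1a6a (r = 0.90), a glucuronosyltransferase, Scgb3a2 to F8a (r = 0.95) and Scgb3a1 to Prepl (r = 0.87).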

How the data were processed

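Total RNA of lung was depleted of ribosomal RNA and made into directional libraries, per the labels' protocols. Reads were processed with Trimmomatic 0.38, Bowtie2, RSEM 1.3.0 and edgeR on GRCm39, per the submitters' processing notes. The deposited table is a normalised signal per gene: the values the authors deposited are whole multiples of 1 step per library (all within 0.01 read), so they were read as CPM of a scaled library size, and read numbers were recovered (100% of values whole). The strand setting is not given in the sources used here. Ensembl IDs were named from GENCODE M21 (23123 of 23255), and transcript lengths are from the same annotation, an older build than the authors'. Groups were taken from the labels. The main test was limma 3.58.1 with a variance trend on log2(value + 1), over the genes that averaged 1 CPM or more, with all 3 groups in 1 fit, two-sided, with Benjamini-Hochberg adjustment and a threshold of 0.05. Fold changes on this scale understate those of low genes. Alternatives were edgeR 4.0.16 and DESeq2 1.42.0 on recovered reads, other scalings, filters and pseudocounts, array weights, left-out libraries and a replicate block. The limma fit was tested on simulated data.

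The 8 genes are always named. Of each list, up to 4 genes with the highest mean were to be named with values. Other list genes named here, among them Lcn2, Pigr, Nkx2-1, Clca1, S100a8, S100a9, Ltf, Cebpb, Sox2 and Bpifb1, were picked after their values were seen. Likeness took, for each of the 8, the 5 genes of highest r among named genes averaging 5 CPM or more. The genes and lists were chosen with earlier results of these data known. Libraries of a group differed by more than sampling noise: the chi-square per degree of freedom between pairs was at least 3.81. Pairs that held osimertinib 2 or osimertinib 3 were at 222 to 536, against 7.38 to 9.31 for the other osimertinib pairs. These values include the unnamed genes with large shares of reads, 43.9% in osimertinib 2 and 16.7% each in osimertinib 3. The part of those genes in the values was not tested. The deviations of same-numbered naphthalene and osimertinib libraries from their group means had correlations of 0.12, 0.16 and 0.52 for numbers 1 to 3. With control they ran from −0.093 to 0.20 for naphthalene and from −0.15 to 0.075 for osimertinib. Only the value of 0.52, for number 3, stood apart. Libraries of unlike number were not compared, so shared pairing by number was not tested.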

Additional observations from a re-analysis of the deposited data

Results flagged for a closer look

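Bpifa1 in osimertinib 3 was at 15.5 CPM, apart from the other 4 osimertinib libraries (55.4 to 60.0). The gap to the nearest of them was 0.94 of the group's range on the log2 scale, above Dixon's 95% limit of 0.71 for 5 values. Chance flags about 1 in 20 groups, and 8 genes were examined in this way. Naphthalene 3 was as low (17.0 CPM), but its group of 3 was not examined.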

How the results depend on the processing

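Over 24 differences (8 genes in 3 comparisons) and 27 other settings, 601 values kept direction and side of the threshold and 36 changed sign. In all 17 came past the threshold, 11 with the same sign and 6 with the sign changed. The causes were not tested except where stated. Scaling mattered most. When all libraries were given equal totals, the median gene moved to −1.46 for naphthalene less control (the first comparison), 1.11 for osimertinib less naphthalene (the second) and −0.34 for osimertinib less control (the third), because the reads of the unnamed gene then count in full, and differences are to be read relative to these. In that order genes called were 15509, 14282 and 88 (8, 4 and 4 of the 8). The values that changed sign were Scgb3a1 (−1.17) and Reg3g (−1.04) in the first comparison, and in the second Scgb1a1 (0.60), Scgb3a1 (0.78), Scgb3a2 (1.14), Bpifa1 (0.58), Chad (0.54), Gabrp (0.74) and Cckar (0.92). With equal totals outside the genes over 10% of a library (median gene −0.46, 0.34 and −0.12), genes called were 532, 400 and 0, and Scgb3a1 (−0.042), and, between the exposed groups, Scgb3a2 (0.25) and Cckar (0.092) changed sign. Quantile normalization turned Scgb1a1 between the exposed groups (0.82), moved it to −2.57 for naphthalene less control, and called 1 gene in the second comparison, and median-ratio rescaling turned Scgb3a1 against control (0.0025). Fits of only the groups compared called 21 and 1 genes in the first and second comparison. Array weights called 5, 4 and 149 genes (1 of the 8, Cckar, in the last) and turned Bpifa1 (0.030) and Scgb3a1 (0.29). The fit without a variance trend called 0 genes between osimertinib and control. The replicate block, which pairs libraries by number, also called 0 there and changed no other call. EdgeR turned Bpifa1 (0.068), Scgb3a2 (0.053) and Scgb3a1 (0.048). DESeq2 did the same (0.15, 0.0013 and 0.068) and called 11, 21 and 75 genes. Without osimertinib 2 and 3 the counts were 38, 47 and 2, and Gabrp (0.20) and Cckar (0.070) between the exposed groups and Scgb3a1 against control (0.13) turned. Without naphthalene 3 and osimertinib 3, chosen after seeing the data, they were 202, 189 and 3, and Bpifa1 (0.49) and Scgb3a1 (0.15) turned. Leaving out 1 library at a time gave 0 to 12, 0 to 11 and 0 to 2 genes called, the most without osimertinib 2, and 0 of the 8. Bpifa1 ran from −1.23 to 0.49 in the first comparison. In the second Scgb3a2 ran from −0.26 to 0.17, Bpifa1 from −1.51 (without naphthalene 3) to 0.21 (without naphthalene 2), Gabrp from −0.80 to 0.022 and Cckar from −0.63 to 0.19. In the third Scgb3a1 ran from −0.20 to 0.16. Scgb1a1, Bpifa1, Reg3g, Chad, Gabrp, Cckar and Scgb3a2 were below control under osimertinib in all settings run.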
